A study of Mus musculus with 6 samples.

Results

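The interferon response genes are the genes through which cells detect foreign or misplaced nucleic acid, answer interferons and restrain viruses. A list of 46 such genes, including Parp14 and its relatives, was taken by gene symbol from the annotation of a mouse expression array, and 45 of them had at least 1 probe there, 91 probes in all. Of these, 34 genes, with 57 probes, were bright enough to be tested, out of 10273 tested genes. The other 11 had no probe above the brightness filter. Expression of Ifi44 is not analysed here, and only its upstream sequence was counted.

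Mutant and control sciatic nerves from mice of postnatal day 14 were compared. The mutants carried P0-Cre, a Cre recombinase driven by the promoter of the peripheral myelin protein P0, and a Dicer genotype that the labels give as "F or N" without explaining it. Their controls were littermates that the labels call WT without spelling out their alleles, and both sexes are named for every sample. There were 3 mutant and 3 control arrays, and the sources used here do not say whether each held 1 animal or a pool, so the p-values cover only sample-to-sample spread, part of which may be technical. Cre under the P0 promoter acts in Schwann cells, whereas a whole nerve also holds fibroblasts, vessel cells and macrophages, so that fewer cells of a type and less RNA per cell cannot be told apart. The design text of the series mentions cultured cells, but its title and all sample labels name sciatic nerve.

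Interferons come in types. Type I interferons act through the receptor chains Ifnar1 and Ifnar2, and interferon gamma through Ifngr1 and Ifngr2. Both use Jak kinases to activate Stat proteins, which enter the nucleus, with Irf9 in the type I pathway, and switch on genes through a motif called the interferon-stimulated response element (ISRE) or the gamma-activated site (GAS). Irf1 and other interferon regulatory factors bind ISRE-like motifs as well, and proteins such as Socs3 and Usp18 damp the signal. In nerve, the same genes are active in immune cells and can be active in glia.

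The motifs are shown here for 6 members picked with a match in a window. Of these, 3 were higher in mutants (Irf1, Socs3, Rsad2) and 3 differed widely among control arrays (Isg15, Ifit3, Gbp2). No call below uses the matches. Each sequence is the 160 bases before the gene's start, 5′ to 3′ along the gene, from RefSeq on GRCm38.p6, and capitals mark matches to GAAANNGAAA on either strand (ISRE-like) or to TTCNNNGAA, which reads the same on both strands (GAS-like). Overlapping matches run together, as in Isg15, where 3 ISRE-like matches form 1 run.
Irf1, chr11:53769854-53770013, plus strand: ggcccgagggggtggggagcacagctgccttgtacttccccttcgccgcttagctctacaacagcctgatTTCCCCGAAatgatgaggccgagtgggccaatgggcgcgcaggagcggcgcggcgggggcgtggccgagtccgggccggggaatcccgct
Socs3, chr11:117969367-117969526, minus strand: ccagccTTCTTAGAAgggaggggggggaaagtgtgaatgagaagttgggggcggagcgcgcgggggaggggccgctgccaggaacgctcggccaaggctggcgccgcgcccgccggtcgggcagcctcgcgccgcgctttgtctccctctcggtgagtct
Rsad2, chr12:26456453-26456612, minus strand: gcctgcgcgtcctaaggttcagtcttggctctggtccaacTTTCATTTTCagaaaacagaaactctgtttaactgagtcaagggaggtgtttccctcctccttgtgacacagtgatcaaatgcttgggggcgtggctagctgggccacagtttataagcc
Isg15, chr4:156200819-156200978, minus strand: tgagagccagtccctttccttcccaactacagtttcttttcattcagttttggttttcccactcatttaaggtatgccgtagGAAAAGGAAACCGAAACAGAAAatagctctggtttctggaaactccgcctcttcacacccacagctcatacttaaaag
Ifit3, chr19:34583369-34583528, plus strand: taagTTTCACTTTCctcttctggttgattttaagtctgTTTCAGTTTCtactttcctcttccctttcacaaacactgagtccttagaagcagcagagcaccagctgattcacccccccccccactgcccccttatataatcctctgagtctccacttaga
Gbp2, chr3:142620503-142620662, plus strand: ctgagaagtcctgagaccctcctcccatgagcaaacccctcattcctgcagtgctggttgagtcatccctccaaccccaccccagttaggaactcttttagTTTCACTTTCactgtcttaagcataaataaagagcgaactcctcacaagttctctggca

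The table of upstream sequences held 49 windows for 39 of the 46 members. Within the 250 bases before the start, 12 member windows (24.5%) held an ISRE-like match, against 2.98% of all 32851 windows. A GAS-like match was in 11 member windows (22.4%), against 7.02% of all windows. Among members called higher, 11 genes had a sequence, 2 of them with an ISRE-like and 5 with a GAS-like match, and among members tested but not called, 18 had one, 7 with an ISRE-like and 4 with a GAS-like match. These matches describe the letters in the windows and no binding was measured. Parp14 had no entry in the table.

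Levels are normalized intensities as deposited, on a log2-like scale that ran from 7.96 to 15.91 with a median of 8.24 in every array, so that values near 8.2 lie at the dim end. Whether the transform is plain log2 or variance-stabilising is not settled, and each difference below is the mutant mean minus the control mean in those units. Array-to-array correlations across the tested probes were 0.973 to 0.993 among mutant arrays, 0.992 to 0.995 among control arrays and 0.912 to 0.942 between groups. All 6 Schwann cell markers on the array were bright enough to be tested. Of these, Mbp, Pmp22 and S100b were lower (-1.33, -1.21 and -1.19), Cdh19 was higher (0.98), and the other two were not called, among them Sox10 at a mean of 13.98 in mutants and 13.94 in controls. Dicer1 was read by 2 tested probes, the brighter not called (-0.02) and the dimmer lower (-0.20, limma adjusted p = 0.0458), and where they lie relative to the altered stretch of Dicer1 was not established, so they check no label. The dimmer probe lost its call in the fit of all probes (0.0558).

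In the mutant nerves 12 of the 34 tested members were higher, 1 was lower and 21 were not called at a limma adjusted p under 0.05, where a gene is represented by its brightest probe. Over all tested genes 22.0% were called higher and 17.6% lower, and over the members 35.3% and 2.94%. The median difference of the members was 0.16, and of all tested genes 0.01. Since the members were chosen with earlier results of these data known, these contrasts are a description only. The genes that were higher were the ADP-ribosyltransferases Parp14 and Parp12, the ubiquitin ligase Trim25, the transcription factors Irf1, Irf2, Irf8 and Stat3, the feedback inhibitor Socs3, the receptor chain Ifngr1, the RNA sensor Ddx58, and the antiviral effectors Rsad2 and Eif2ak2. The gene that was lower was Ifi27, a gene induced by type I interferon. Of the 13 called members, 8 were called whichever single array was left out (Parp14, Parp12, Trim25, Irf1, Irf2, Irf8, Socs3 and Ifi27), and 5 were not (Rsad2, Eif2ak2, Stat3, Ifngr1 and Ddx58). With the replicate number as a block, 3 members instead of 1 were called lower, since Isg15 (-0.52, adjusted p = 0.0265) and Ifit3 (-0.37, adjusted p = 0.0445) were added, and 12 were called higher.

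**Figure D1:**
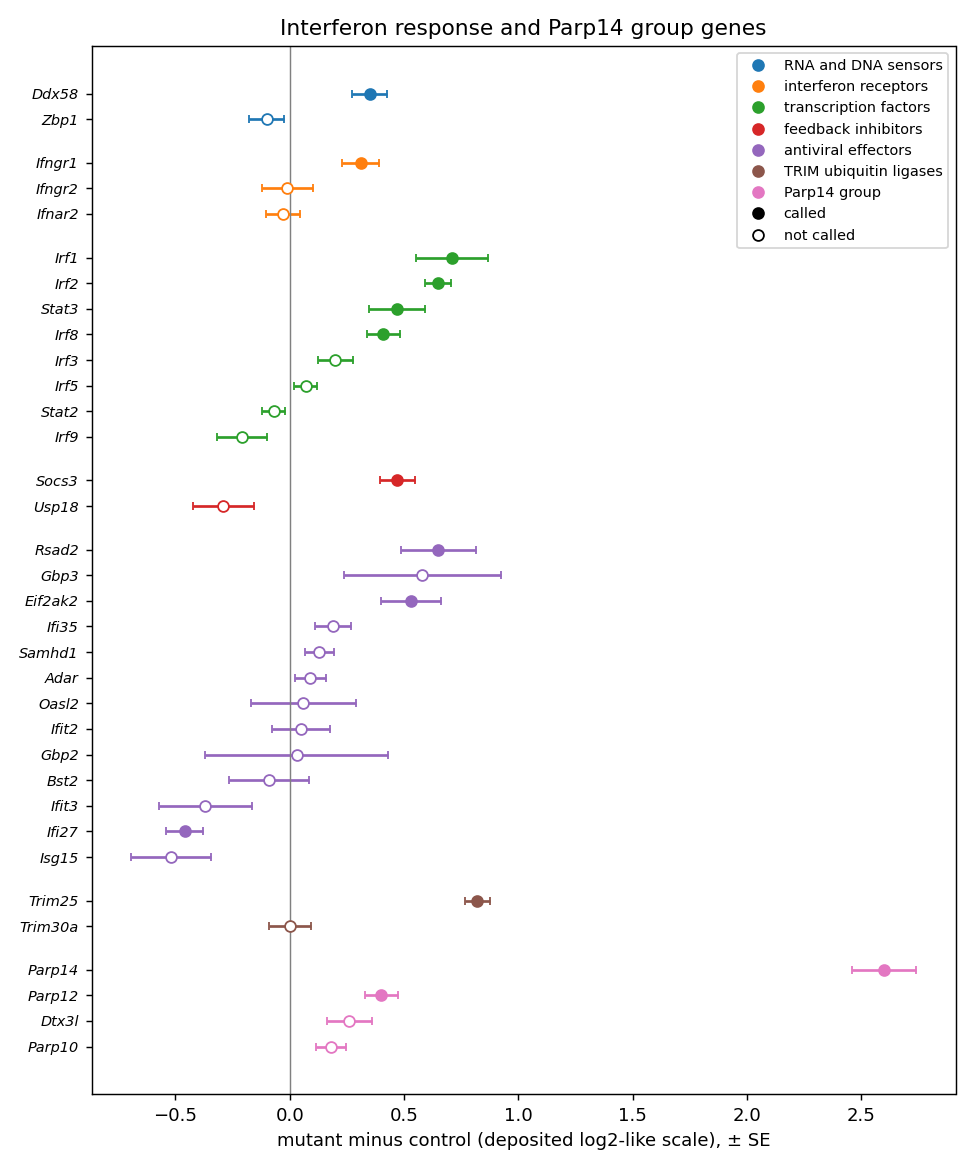
Mutant minus control difference of the 34 tested members on the deposited log2-like scale, with the standard error of the limma fit (3 mutant and 3 control arrays), coloured by role; filled points were called at an adjusted p under 0.05. Parp14 stands apart at 2.60, and the antiviral effectors spread on both sides of 0.

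Parp14 had the largest difference of the 34 tested members. It adds single ADP-ribose units to proteins and is known in mice as a coactivator of Stat6. Its brightest probe read 12.42, 12.39 and 12.31 in mutants, against 9.45, 9.84 and 10.03 in controls. Every mutant array lay at least 2.28 above every control array. The difference was 2.60 (SE 0.141, limma adjusted p = 3.71e-05), the 12th largest rise among the 10273 tested genes. A dimmer Parp14 probe read 8.87, 8.69 and 8.56 in mutants and 8.12, 8.21 and 8.12 in controls. It was called too, with a smaller difference of 0.55 (SE 0.0856, adjusted p = 0.00315). Its control mean of 8.15 was under 8.34, the lowest mean that passed the filter, so its mutant values carried it into the tested set. In the limma fit of all probes it was called as well (adjusted p = 0.00844). The third Parp14 probe lay under the filter, at 8.33 to 8.42 in mutants and 8.23 to 8.34 in controls. It was not called in the limma fit of all probes (adjusted p = 0.242). The probes thus differ in the size of the change, and the dim ones stood near the floor of the scale in controls.

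Dtx3l and Parp9 follow Parp14 in the RefSeq gene order (GRCm38.p6), and their products form a complex of a ubiquitin ligase and an ADP-ribosyltransferase-like protein. Dtx3l read 9.48, 9.22 and 9.31 in mutants, against 8.92, 9.11 and 9.21 in controls. The groups were parted by 0.01 only, and the difference of 0.26 was not called (SE 0.0985, limma adjusted p = 0.0882). A second, dim Dtx3l probe differed by -0.01. Both Parp9 probes were under the filter, the brighter at 8.28 to 8.35 in mutants and 8.27 to 8.29 in controls. Of these 3 neighbours, Parp14 alone was called, and Parp9 was tested only in the fit of all probes, where neither probe was called (adjusted p = 0.601 and 0.701).

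Parp12, a zinc-finger member of the same enzyme family induced by interferon, read 9.19, 9.07 and 9.24 in mutants, against 8.67, 8.86 and 8.77 in controls. Its groups did not overlap, and it was higher by 0.40 (SE 0.0726, limma adjusted p = 0.0064). Parp10, another mono-ADP-ribosyltransferase, read 8.48, 8.56 and 8.56 in mutants and 8.32, 8.27 and 8.46 in controls. It was not called at 0.18 (adjusted p = 0.0726), but was with an intensity trend (0.0279) and without control replicate 3 (0.0379). In the wider set of ADP-ribosylation genes, 14 were tested outside the Parp14 group, of which 3 were higher, 3 lower and 8 not called, with a median of 0.04. These shares, 21.4% each, lie near those of all tested genes, 22.0% higher and 17.6% lower. Parp2, a DNA repair enzyme, was higher by 0.74 (SE 0.0736, adjusted p = 0.00047) and Tnks, which encodes tankyrase, by 0.69 (SE 0.115, adjusted p = 0.00426). The genes that were lower, Macrod1, Macrod2 and Oard1, encode enzymes that remove ADP-ribose, and their differences ran from -0.35 to -0.26. All 3 probes were dim, with control means of 8.70 to 9.15, and none remained among the 10000 brightest.

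**Figure D2:**
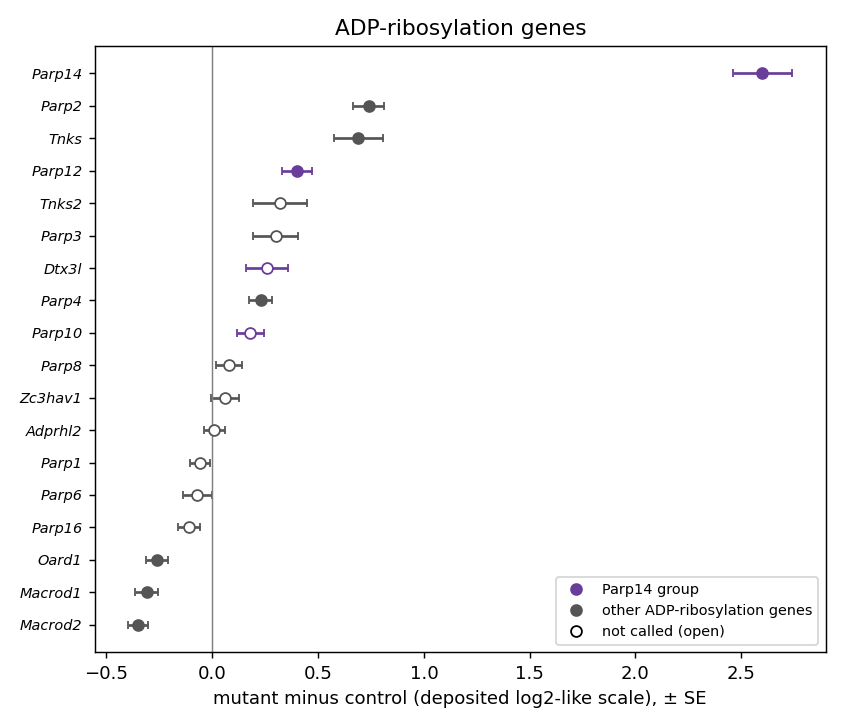
Mutant minus control difference with its standard error (limma, 3 arrays per group) on the deposited log2-like scale for 4 genes of the Parp14 group (purple) and 14 other ADP-ribosylation genes (grey); filled points were called. Parp14, at 2.60, lies beyond Parp2, the next at 0.74.

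Sensors of nucleic acid came next. Ddx58, which encodes the RNA sensor RIG-I, read 9.06, 8.83 and 8.86 in mutants, against 8.59, 8.5 and 8.61 in controls. The groups did not overlap, and the difference was 0.35 (SE 0.0764, limma adjusted p = 0.0133). That call was lost without control replicate 2 (0.0537). The other 2 Ddx58 probes were under the filter. Zbp1, a sensor of left-handed nucleic acid, was not called at -0.10 (adjusted p = 0.359), with 8.44, 8.44 and 8.61 in mutants and 8.49, 8.63 and 8.67 in controls. The sensor Ifih1 and its relative Dhx58 had no probe above the filter. Outside the list, the DNA sensor gene Cgas read 10.74, 10.90 and 10.76 in mutants, against 9.61, 9.63 and 9.58 in controls, and was higher by 1.20 (SE 0.0611, adjusted p = 2.87e-05).

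Among receptors, the chains for interferon gamma and for type I interferon were set side by side. Ifngr1, the ligand-binding chain for interferon gamma, read 10.31, 10.45 and 10.36 in mutants, against 9.95, 10.20 and 10.03 in controls. Its groups were 0.10 apart, and it was higher by 0.31 (SE 0.0799, limma adjusted p = 0.023). The call was lost without control replicate 1 (0.0792) or 3 (0.0768) and without mutant replicate 2 (0.0766) or 3. Ifngr2, the signalling chain, had 3 tested probes that disagreed. Its brightest read 10.03, 10.11 and 10.45 in mutants and 10.17, 10.21 and 10.24 in controls, and was not called (-0.01, adjusted p = 0.967). The next read 9.68, 9.59 and 9.53 in mutants and 9.26, 9.20 and 9.16 in controls, and was higher by 0.40 (SE 0.0595, adjusted p = 0.00275). The third was higher by 0.33 (adjusted p = 0.0155), a call lost without control replicate 1 or 2 or mutant replicate 2. Of the type I chains, both tested Ifnar2 probes were not called, at -0.03 and -0.10, and the Ifnar1 probe was under the filter.

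Kinases and adaptors between receptor and nucleus were read next. Of 18 tested genes of that signalling list outside the members, 5 were higher, 1 lower and 12 not called, with a median of 0.10. These are 27.8% and 5.56%, against 22.0% and 17.6% of all tested genes. The gene that was lower was Jak1, the kinase shared by the receptors of both interferon types, with 9.23, 9.26 and 9.31 in mutants, against 10.50, 10.34 and 10.58 in controls. That is a difference of -1.21 (SE 0.0723, limma adjusted p = 5.87e-05), with no overlap. Of the genes that were higher beside Cgas, Tyk2, another Jak kinase, differed by 0.49 (SE 0.0596, adjusted p = 0.00117) and Tbk1 by 0.42 (adjusted p = 0.0123). Socs2, a feedback inhibitor of cytokine receptors, differed by 0.73 (adjusted p = 0.0149), a call lost without control replicate 1 (0.0597) or 3 (0.0567). Ptpn2 differed by 0.23 (adjusted p = 0.0258), a call lost whichever control array was left out (0.0549 to 0.0855) and without mutant replicate 2 (0.0698). Its control mean of 8.31 was under 8.34, the lowest mean that passed the filter. In the limma fit of all probes Ptpn2 was called (adjusted p = 0.0298). Without control replicate 1, and likewise without control replicate 3, 3 genes of the list were called higher. Of 12 interferon ligand genes on the array, 11 had no probe above the filter, and the 22 probes of all 12 ran from 8.03 to 8.45 in mutants and from 8.05 to 8.48 in controls. The ligand gene that passed, Ifnz, was not called (-0.02, adjusted p = 0.765).

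Of the 9 transcription factors, 8 were tested, 4 of them higher (50%) and 0 lower, against 22.0% higher and 17.6% lower over all tested genes. Irf1, an activator that interferon gamma induces, read 12.66, 12.29 and 12.22 in mutants, against 11.40, 11.75 and 11.88 in controls. All mutant arrays were above all control arrays, and it was higher by 0.71 (SE 0.159, limma adjusted p = 0.014). Of its 4 tested probes, 3 were called higher, with differences from 0.34 to 0.71, and the dimmest was not called at 0.24 (adjusted p = 0.107). The promoter window of Irf1 printed above holds 1 GAS-like and no ISRE-like match, and a second Irf1 window holds neither. Irf2, which competes with Irf1 for the same motif and often represses it, read 12.05, 12.01 and 11.94 in mutants, against 11.29, 11.40 and 11.36 in controls. Its arrays were tight within each group, with a difference of 0.65 (SE 0.0571, adjusted p = 0.000268). Both the activator and its competitor were thus called higher.

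Stat3 carries signals of interleukin-6 type cytokines and is also activated by interferons. Its brightest probe read 11.76, 11.49 and 11.61 in mutants, against 11.22, 11.32 and 10.91 in controls. It was higher by 0.47 (SE 0.122, limma adjusted p = 0.024), and the call was lost without control replicate 1 (0.0579), without mutant replicate 3 (0.0521) and with all probes tested (0.063). Another Stat3 probe was called at 0.28 (adjusted p = 0.00446) and the third was not called at 0.19 (0.0983). Irf8, a factor of macrophages and dendritic cells, read 9.03, 9.02 and 8.96 in mutants, against 8.59, 8.48 and 8.72 in controls. The groups did not overlap, and it was higher by 0.41 (SE 0.0718, adjusted p = 0.00555).

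Markers of macrophages, where Irf8 is known to act, were read beside it. Over all tested genes, the reference for each marker list here, 22.0% were higher and 17.6% lower. Of 14 tested macrophage markers, 3 were higher (21.4%), 1 lower (7.14%) and 10 not called, with a median of 0.06. Without mutant replicate 1, 5 were higher, with Aif1 (0.55, limma adjusted p = 0.0117) and C1qc (0.28, adjusted p = 0.0354) added. Their mean level was 10.37 to 10.58 in mutant arrays and 10.31 to 10.46 in control arrays. Mpeg1 was higher by 1.19, Laptm5 by 0.51 and Ctss by 0.25 (limma adjusted p = 0.0315), while Cd163 was lower (-0.76). The Ctss call was lost without control replicate 1 (0.109) or 2 (0.107) and without mutant replicate 2 (0.0632) or 3 (0.0818). The 10 markers not called differed by -0.07 (Tyrobp) to 0.30 (Aif1), among them Adgre1 at 0.23, Csf1r at 0.04 and C1qa at 0.03. The part of these cells in the Irf8 difference was not tested. All 12 probes of 8 T and B cell markers were under the filter, within 8.03 to 8.46 in mutants and 8.04 to 8.44 in controls, and in the limma fit of all probes 1 of them was called, higher (adjusted p = 0.00513). The mast cell list had 4 of 5 markers higher (80%), with a mean level of 9.67 to 10.08 in mutants and 9.13 to 9.24 in controls. Cpa3 and Cma1 were each higher by 1.04, Mcpt4 by 0.71 and Tpsb2 by 0.60. The Schwann cell markers had a mean level of 11.70 to 11.83 in mutants and 12.17 to 12.28 in controls. Fibroblast markers were higher in 2 of 6 (Lum 0.99, Col1a1 0.61). Of 3 plasmacytoid dendritic cell markers, Tcf4 was higher (0.65), with means of 13.16 in mutants and 12.51 in controls. The much dimmer Siglech (0.08) and Bst2 (-0.09), with control means of 8.61 and 9.06, were not called. Of 9 neutrophil markers on the array, 7 were under the filter. Of the 2 tested, Retnlg was higher (0.83, limma adjusted p = 0.0269), a call lost with all probes tested (0.08) and without any single array (0.0569 to 0.0832) other than mutant replicate 1. Its control mean was 8.20 and its mutant mean 9.03, so it passed the filter (lowest mean 8.34) only through its mutant values. Of 5 endothelial markers Flt1 was lower (-0.39, adjusted p = 0.0393), a call lost with all probes tested (0.0948), without control replicate 1 (0.115) or 2 (0.12) and without mutant replicate 2 (0.105) or 3 (0.0975). Their part in the differences of the members was not tested.

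Irf3, the factor that sensors activate, had 3 tested probes, all with separate groups. The brightest read 12.29, 12.32 and 12.30 in mutants, against 12.21, 12.15 and 11.95 in controls, and was not called (0.20, limma adjusted p = 0.0807). The others were called at 0.25 (adjusted p = 0.00827) and 0.15 (0.0498). The call at 0.15 was lost with the replicate block (0.0989) and whichever single array was left out. Irf9 and Stat2, partners in the type I interferon complex, were not called. Irf9 read 9.42, 9.26 and 9.16 in mutants, against 9.30, 9.51 and 9.66 in controls, with overlap and a difference of -0.21 (adjusted p = 0.186). A second Irf9 probe read 8.63, 8.52 and 8.61 in mutants, against 8.54, 8.86 and 8.97 in controls (-0.20, adjusted p = 0.211), and was called lower without control replicate 1 (-0.33, adjusted p = 0.0253). Stat2 read 8.52, 8.51 and 8.56 in mutants and 8.57, 8.65 and 8.59 in controls (-0.07, adjusted p = 0.314), the groups lying 0.01 apart. Irf5 was not called (0.07), and the single Irf7 probe was under the filter.

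Feedback inhibitors gave different results from each other. Socs3, which blocks Jak signalling below interleukin-6 type receptors, read 10.07, 10.17 and 10.08 in mutants, against 9.69, 9.72 and 9.49 in controls. The gap between groups was 0.35 and the difference 0.47 (SE 0.0763, limma adjusted p = 0.0037). Usp18, which strips Isg15 from proteins and shuts off the type I receptor, read 8.31, 8.36 and 8.43 in mutants, against 8.37, 8.66 and 8.93 in controls. It was not called at -0.29 (adjusted p = 0.146), and was called lower without control replicate 1 (-0.43, adjusted p = 0.0302). Socs1 lay under the filter. Trim25, a ubiquitin ligase that activates RIG-I, read 10.62, 10.61 and 10.63 in mutants, against 9.77, 9.89 and 9.76 in controls. After Parp14 this was the largest difference among the tested members, 0.82 (SE 0.0552, adjusted p = 9.29e-05). A dim second Trim25 probe was not called (0.11, adjusted p = 0.157), nor was Trim30a, a related gene (0.00, adjusted p = 0.979).

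**Figure D3:**
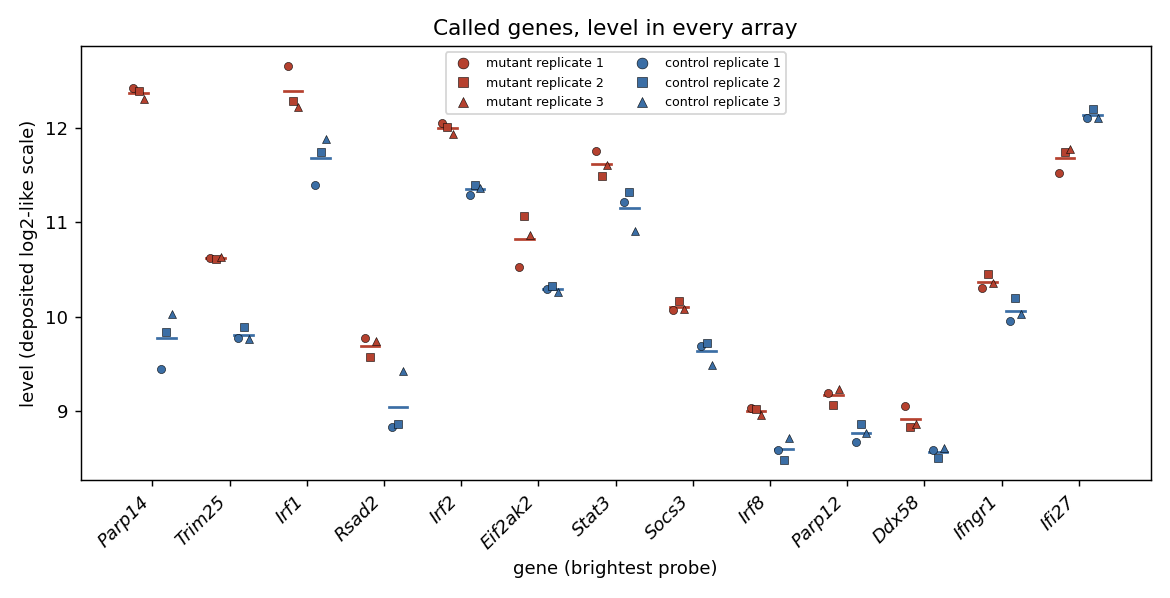
Level of the 13 called members in each of the 3 mutant (red) and 3 control (blue) arrays on the deposited log2-like scale; bars are group means and marker shapes give replicate numbers. No mutant array overlaps a control array in these genes, and Ifi27 is the gene lower in mutants.

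Most antiviral effectors were not called. Of 13 tested, 2 were higher (15.4%), 1 was lower (7.69%) and 10 were not called, with a median of 0.06, against 22.0% higher and 17.6% lower over all tested genes. Rsad2, which encodes viperin, read 9.77, 9.57 and 9.74 in mutants, against 8.83, 8.86 and 9.43 in controls. It was higher by 0.65 (SE 0.164, limma adjusted p = 0.022), with control replicate 3 well above the other controls. That call was lost with all probes tested (0.0642), without control replicate 1 (0.0777) or 2 (0.0787) and without mutant replicate 3 (0.0549). Eif2ak2, the kinase PKR that halts translation on double-stranded RNA, read 10.53, 11.07 and 10.87 in mutants, against 10.29, 10.33 and 10.26 in controls. It was higher by 0.53 (SE 0.131, adjusted p = 0.0205), and the mutants spread over 0.54 while the controls stayed within 0.07. This call was lost with all probes tested (0.0567), without any single control array (0.0594 to 0.071) and without mutant replicate 3 (0.0525). With all probes tested 0 effectors were therefore called higher, at an unchanged difference.

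Ifi27 read 11.52, 11.75 and 11.78 in mutants, against 12.11, 12.20 and 12.11 in controls. Its groups were 0.33 apart, and it was lower at -0.46 (SE 0.0807, limma adjusted p = 0.00555). The second probe gave the same picture, at -0.48 (SE 0.0748, adjusted p = 0.00328). Isg15, the ubiquitin-like modifier that is among the first products of type I interferon, read 8.41, 8.59 and 8.63 in mutants, against 8.80, 8.92 and 9.47 in controls. The groups did not overlap, but with controls spread over 0.68 it was not called (-0.52, SE 0.175, adjusted p = 0.0595). It was called lower with the replicate block, as given above, with an intensity trend (0.0303) and without control replicate 1 (-0.65, adjusted p = 0.0475). Its printed window holds 3 ISRE-like matches, that of Rsad2, higher in mutants, holds 1, and those of Irf1 and Socs3, also higher, hold a GAS-like match. These windows were picked to hold a match, and a link between match and direction was not tested.

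Ifit3, which binds to antiviral signalling proteins, read 9.15, 9.36 and 9.54 in mutants, against 9.40, 9.59 and 10.17 in controls, and the groups overlapped (-0.37, limma adjusted p = 0.21). Each mutant array was below the control array of the same number, and with the replicate block it was called lower (adjusted p = 0.0445). The dimmer Ifit3 probe was not called (-0.15, adjusted p = 0.307). Ifit2 was not called by either probe (0.05 and -0.03). Adar, which edits double-stranded RNA, had 4 tested probes, none called, with differences from 0.00 to 0.13. Samhd1, an enzyme that breaks down DNA building blocks, Ifi35 and the virus-tethering gene Bst2 differed by 0.13, 0.19 and -0.09 and were not called. Ifi35 was called without control replicate 3 (0.27, adjusted p = 0.0289). Ifit1, Isg20, Oas1a, Oasl1 and Xaf1 lay under the filter.

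The 11 members without a tested probe had 18 probes, within 8.04 to 8.35 in mutants and 8.02 to 8.38 in controls. In the limma fit of all 45281 probes, 0 of these 18 were called and 0 had an unadjusted p under 0.05, with a smallest adjusted p of 0.27. Counting the dim probes of tested members too, 34 member probes were under the filter, of which 0 were called in that fit and 2 had an unadjusted p under 0.05, both higher, with a smallest adjusted p of 0.0693 for a Parp10 probe. Dim probes could be called in that fit, as that of Pnpt1, an interferon-induced gene outside the members, was (0.19, adjusted p = 0.00583). Pnpt1 was picked for its call, so it does not show how often changes at the dim end would be detected.

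Control arrays differed among themselves in the effectors. Gbp2, a GTPase that interferon gamma induces strongly, read 11.33, 10.91 and 10.97 in mutants, against 10.07, 11.35 and 11.69 in controls. All mutant arrays lay inside the range of the controls, which was 1.63. Its difference was 0.03 (SE 0.400, limma adjusted p = 0.958). A dimmer Gbp2 probe read 8.60, 8.36 and 8.29 in mutants, against 8.24, 8.87 and 8.94 in controls (-0.27, adjusted p = 0.319), and was called lower without control replicate 1 (-0.49, adjusted p = 0.0256). Gbp3 read 11.10, 10.65 and 10.65 in mutants and 9.46, 10.32 and 10.87 in controls, a difference of 0.58 that was not called (SE 0.343, adjusted p = 0.235). Oasl2, a relative of the RNA-activated synthetases, read 9.77, 9.82 and 9.86 in mutants, against 9.23, 9.80 and 10.23 in controls, again with every mutant array inside the controls (0.06, adjusted p = 0.862). In each of these genes control replicate 1 was lowest and control replicate 3 highest.

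Over the 34 tested members, control replicate 1 was the lowest control in 21 (61.8%) and control replicate 3 the highest in 24 (70.6%). Over all tested genes these shares were 28.4% and 36.9%. A control range of at least 0.5, a limit chosen after the values were seen, was reached by 8 members (23.5%), against 2.33% of all tested genes. In mutants, 2 members (5.88%) spread as far, against 12% of all tested genes. The mean level of the 34 members was 9.86, 9.84 and 9.86 in mutant arrays and 9.47, 9.62 and 9.76 in control arrays. Groups did not overlap in 18 members, 15 higher and 3 lower in mutants, and over all tested genes this held for 55.2%.

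**Figure D4:**
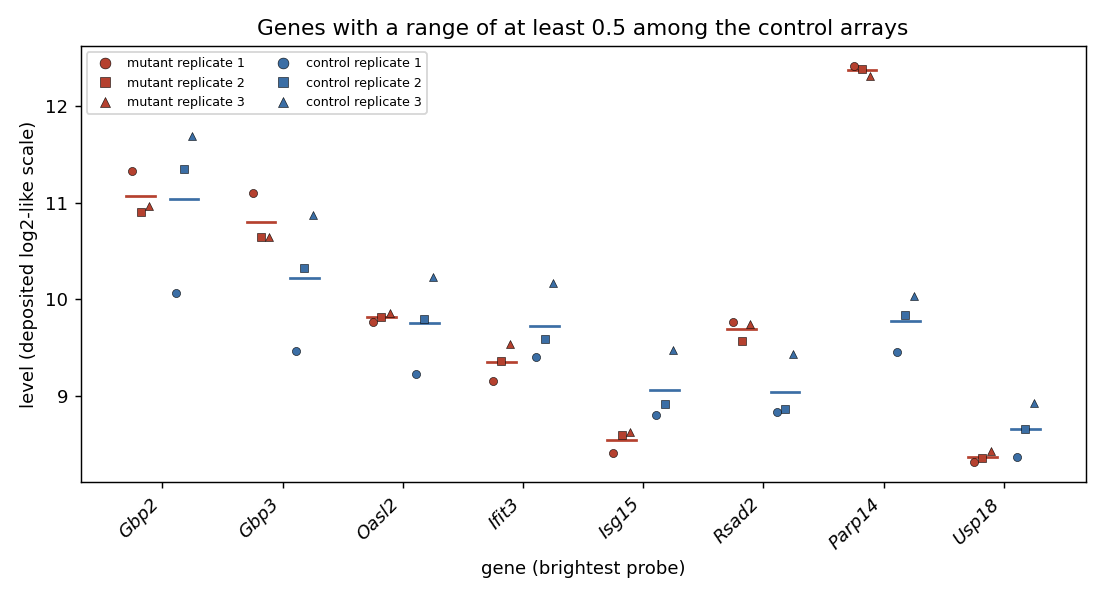
Level in every array of the 8 members whose 3 control arrays (blue) spanned at least 0.5 on the deposited log2-like scale, in order of that range, with mutant arrays (red) to the left; bars are group means. Control replicate 3 (triangle) is the highest control in all 8, and Parp14 and Rsad2 lie above the controls in every mutant array.

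The same order of controls was present in interferon-induced genes outside the members. Of 29 such genes tested, control replicate 1 was the lowest control in 24 and control replicate 3 the highest in 23, and 11 had a control range of at least 0.5. Igtp, a GTPase gene of the interferon gamma response picked after its values were seen, read 9.13, 8.99 and 9.05 in mutants, against 9.01, 10.29 and 10.67 in controls. It was not called (-0.93, limma adjusted p = 0.114). The immunoproteasome gene Psmb8, picked likewise, read 10.07, 10.32 and 10.48 in mutants, against 9.81, 10.34 and 11.01 in controls. Of the 29, 5 were higher (17.2%), 0 lower and 24 not called, with a median of -0.11. Over all tested genes 22.0% were higher and 17.6% lower. Without control replicate 1, 2 of the 29 were called higher and 5 lower (Igtp, Ifi47, Irgm2, Cxcl9 and Cd274, at -1.42 to -0.56). With the replicate block, 5 were higher and 4 lower (Ifitm3, Psmb10, Ifi27l2a and Ly6e, at -0.65 to -0.36).

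Among the 5 of these 29 genes that were higher, Cxcl10, a chemokine that attracts T cells, read 9.54, 10.07 and 9.61 in mutants, against 8.25, 8.33 and 8.40 in controls. It was higher by 1.41 (SE 0.142, limma adjusted p = 0.000484), from control values at the dim end. Their mean of 8.33 was under 8.34, the lowest mean that passed the filter. In the limma fit of all probes Cxcl10 was called too (adjusted p = 0.00241). Tap2, a subunit of the peptide transporter of antigen presentation, read 11.20, 11.24 and 11.30 in mutants, against 10.04, 10.26 and 10.52 in controls, a difference of 0.97 (adjusted p = 0.00115). Its partner Tap1 was not called (0.07, adjusted p = 0.664). All mutant arrays lay inside the control range in 8 of these 29 genes (27.6%) and in 3 of the 34 members (8.82%), against 4.85% of all tested genes.

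Several members were read by more than 1 tested probe. Of 16 such genes, all probes were called in 2 (Parp14 and Ifi27), none in 9, and called and uncalled probes stood side by side in 5 (Irf1, Irf3, Stat3, Trim25 and Ifngr2). These counts cover tested probes only, and the dimmer tested Parp14 probe had passed the filter through its mutant values. In 0 of the 16 were probes called in opposite directions. Counted by probe, 20 of the 57 were higher and 2 lower, against 19.9% and 15.9% of the 18420 tested probes. Without control replicate 1 these counts were 13 and 6.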

How the data were processed

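The deposited values are 1 table of normalized log2-like intensities for 45281 probes on 6 Illumina Mouse WG-6 version 2 arrays. Per the labels' design text, the authors preprocessed with limma and normalized by RMA, and the submitters' processing notes name lumi 1.8.3. How background was corrected was not stated. Every array holds the same distribution, so no further normalization was applied. In place of the authors' present calls, testing was limited to the 18420 brightest probes by mean level (lowest mean 8.34). The mean covered all 6 arrays, so a dim probe could pass through the group in which it was higher. Genes were named by the platform annotation, and the brightest tested probe stood for a gene.

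The mutant against control contrast was fitted by limma 3.58.1 under R 4.3.3 (linear model with eBayes moderation, 2-sided, 4 residual and 2.63 prior degrees of freedom), with Benjamini-Hochberg adjustment over the tested probes and calls at an adjusted p under 0.05. The steps were tested on simulated data. The number of arrays limits the precision. Members and lists were chosen with earlier results of these data known. Every member is accounted for, those with a called probe or with groups at least 0.3 apart by every array. Other genes are named where called with a difference of at least 0.5, at most 6 a list. Some are named otherwise, as markers, as examples chosen after their values were seen, or from counts of 5 or fewer.

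Deviations from the group means correlated between same-numbered mutant and control arrays at 0.165, 0.155 and 0.224. Between arrays of other numbers they correlated at -0.157 to 0.028. Because deviations within each group cancel out, the correlations are not independent, and higher ones at same numbers force lower ones at other numbers. On this check alone, replicate numbers may pair the samples, but pairing is not established. The main fit used no block, so its p-values take no account of such pairing, and the replicate block was run as an alternative only. The alternatives were no filter, a filter of 10000 probes, the replicate block, centring on the median of the tested probes, an intensity trend, the dimmest tested probe of a gene and leaving out each array.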

Additional observations from a re-analysis of the deposited data

How the results depend on the processing

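The count of members called higher, 12, was 8 to 13 under every alternative run, and the dimmest tested probe of each gene gave 12 higher and 1 lower. Of the members called lower there was 1, against 3 with the replicate block, 2 with an intensity trend and 1 to 3 when single arrays were left out. Member probes called higher numbered 20, and 13 to 19 without single arrays, and those called lower 2, against 4 with the replicate block and 2 to 6 without single arrays, 6 without control replicate 1. Effectors called higher numbered 2, against 0 with all probes tested and 0 to 2 without single arrays, and effectors called lower 1, against 3 with the replicate block, 2 with an intensity trend and 1 to 2 without single arrays. Without single arrays, sensors and receptors called higher were 0 to 1 each and feedback inhibitors called lower 0 to 1. With 10000 probes, which leaves dim genes untested, 0 sensors and 1 gene of the Parp14 group were higher, 0 other ADP-ribosylation genes were lower, and all probes called lower were 1937. For the other lists without single arrays, signalling genes called higher were 3 to 6 and lower 1 to 2, and further interferon-induced genes called higher 2 to 5 and lower 0 to 5. The last were 4 with the replicate block and 1 with an intensity trend. Pml, called higher at 0.19, lost its call with the replicate block (adjusted p = 0.0777), and Gbp7 gained one (0.41, adjusted p = 0.0384), as did Parp3 (0.30, adjusted p = 0.0138). The macrophage marker Adgre1 (0.23, adjusted p = 0.0359) and the endothelial marker Pecam1 (0.25, adjusted p = 0.0313) gained one too. The block changed no other member's brightest-probe call than those of Isg15 and Ifit3. Centring on the median of the tested probes left every count as it was, since the array medians were equal. Apart from what follows from the number of arrays or of tested probes, the cause of these shifts was not tested. The brightness filter stands in for signal over background, and 11 members were tested only in the fit of all probes.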
